A study of Mus musculus with 4 samples.

Results

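Transcripts of the epithelial-mesenchymal transition (EMT) were examined in 4T1, a mammary carcinoma cell line of the mouse, grown in culture. The set comprised 10 genes chosen by symbol: the transcription factors Snai1, Snai2, Twist1, Twist2, Zeb1 and Zeb2, the cadherins Cdh1 and Cdh2, the intermediate filament gene Vim and the adhesion molecule gene Epcam. Of the 10, 9 had at least 1 probe set annotated with that symbol alone, 12 probe sets of the 41345 on the array, and they were tested among 22180 genes. Zeb2 could not be read, because both of its probe sets also carried the symbol of a second gene. The knockdown cells (shLDHA) carried a short hairpin RNA against Ldha, which encodes the lactate dehydrogenase subunit that turns pyruvate into lactate; the cells that carried it were selected with 10 µg/ml of puromycin and combined, so they are not a single clone. The control cells (scramble) carried a scrambled hairpin, and the labels do not state whether they were selected with puromycin as well, so that selection and knockdown cannot be told apart. Both kinds of cell were kept in complete medium for 24 hours, and total RNA (400 ng each) was labelled for hybridisation to whole-transcript Affymetrix arrays, 2 per group. Nothing in the labels says whether the 2 samples of a group were separate cultures, so p-values measure only the spread between arrays, which may be technical.

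In EMT, epithelial cells lose their cell-to-cell junctions and gain a motile, mesenchymal state. SNAIL, TWIST and ZEB proteins drive it, partly by binding E-boxes, short DNA motifs, and shutting off E-cadherin (Cdh1) and other junction genes. N-cadherin (Cdh2) and vimentin (Vim) are the usual markers gained in the course of it, while E-cadherin and EpCAM (Epcam) mark the epithelial state. In carcinoma cells many intermediate states exist in which markers of both kinds occur together.

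The values are log2 expression values as the authors deposited them. Ldha, the targeted transcript, read 6.31 and 6.15 in shLDHA cells, against 6.69 and 6.96 in scramble cells, a log2 change of -0.59 (SE 0.12, limma adjusted p = 0.0390). Of the fits that leave out 1 array, the Ldha call was lost without shLDHA replicate 1 (adjusted p = 0.0965), shLDHA replicate 2 (0.163) or scramble replicate 2 (0.128). A gene was called dim where the mean of its brighter group lay under 4.21, the level below which 95% of 1088 olfactory receptor genes fell. All 7 tested epithelial markers that were listed to check the cell line, keratins and claudins, lay above that limit. So did 2 of 7 leukocyte markers (Cd68 and Cd14), 1 of 8 fibroblast markers (Pdgfra) and 0 of 6 endothelial markers, and the leukocyte marker Ptprc, the fibroblast collagen gene Col1a1 and the endothelial marker Pecam1 were dim. The mean log2 level of the 7 leukocyte markers was 3.80 to 3.82 on the shLDHA arrays, against 3.91 to 3.99 on the scramble arrays. Cd68 was the only one past the threshold (log2 change -0.91), 1 of 7 beside 2.99% of all genes that were lower. The epithelial mean was lower too, 7.67 to 7.71 in shLDHA against 7.83 to 7.86. Its markers were split, with 4 negative log2 changes, down to -1.06 for Cldn7, and 3 positive ones, up to 0.80 for Krt14. The fibroblast mean was lower, 3.51 to 3.52 against 3.58 to 3.60, while the endothelial mean was higher, 3.08 to 3.12 against 3.02 to 3.06. Because 7 of the 8 fibroblast and all 6 endothelial markers were dim and none passed, these small differences in mean carry little meaning. The part of other cell types in the results below was not tested.

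Among the EMT genes, Epcam rose in the knockdown and the other 8 did not pass the test. The 1 rise in 9 genes compares with 6.36% of all 22180 genes that passed in either direction, 3.37% higher and 2.99% lower in shLDHA, at an adjusted p under 0.05 (limma with Benjamini-Hochberg adjustment over all genes). At an unadjusted limma p under 0.05, 2 of the 9 passed, Epcam and Snai2. So did 4778 of all 22180 genes, a share close to that of the 9. Of the 9 log2 changes, 6 were negative, beside 10710 of all 22180 genes, and Snai2, Twist2 and Cdh2 among the 6 were dim. The median was -0.15, beside 0.01 over all genes. In 6 of the 9 genes both shLDHA arrays lay beyond both scramble arrays, 2 above and 4 below, but so they did in 50.3% of all genes, above in 26.2% and below in 24%.

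**Figure D1:**
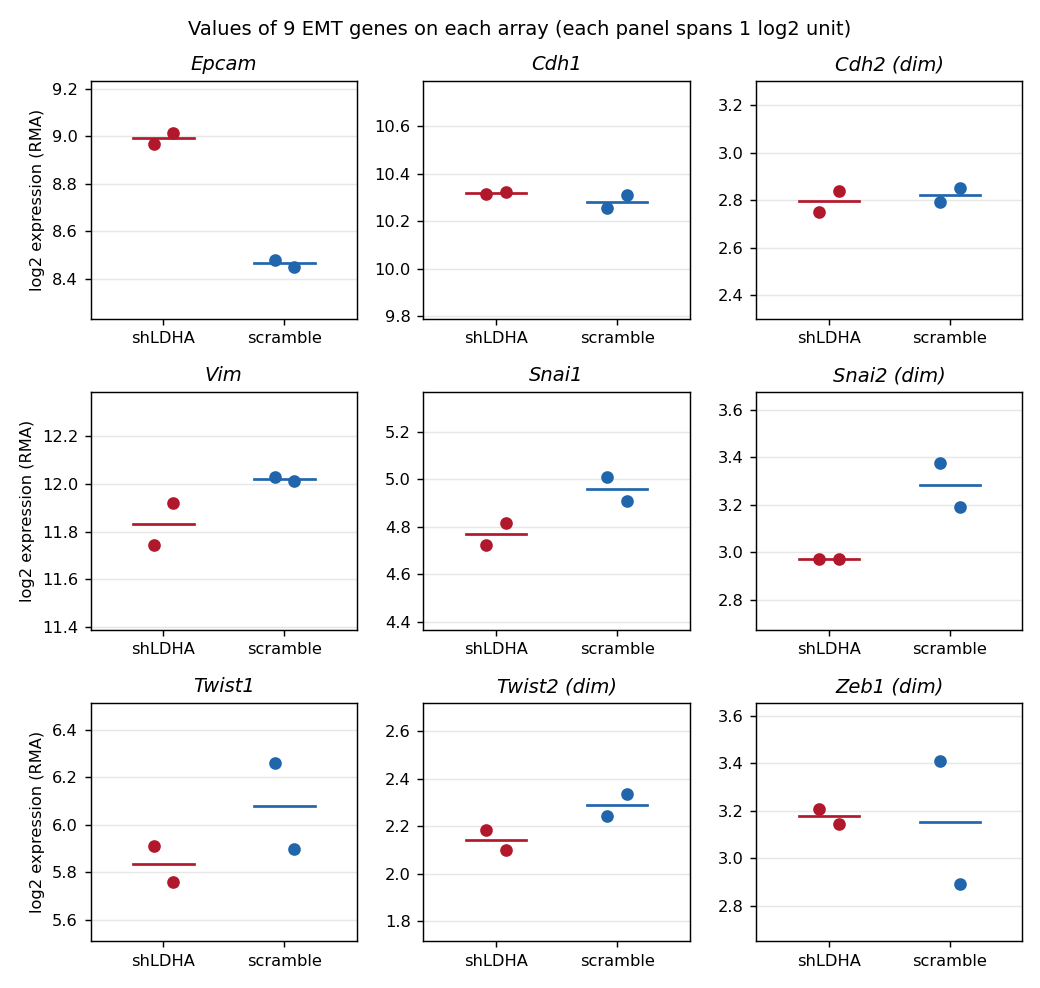
Log2 expression (RMA) of the 9 EMT genes on each array, with shLDHA at the left and scramble at the right of each panel; dots are arrays, lines are group means, and every panel spans 1 log2 unit. The nearest shLDHA and scramble arrays of Epcam are 0.49 apart, the farthest of Cdh1 are 0.07 apart, and the dots of Twist1, Zeb1 and Cdh2 overlap.

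Epcam, which encodes a homophilic adhesion molecule of the epithelial surface, read 8.97 and 9.01 in shLDHA cells, against 8.48 and 8.45 in scramble cells. Both knockdown arrays were above both controls, and the nearest pair was 0.49 apart, against 0.05 between the shLDHA arrays and 0.03 between the scramble arrays. The means were 8.99 ± 0.03 in shLDHA and 8.46 ± 0.02 in scramble cells (SD, n = 2 each), a log2 change of 0.53 (SE 0.08), or 1.44-fold higher (95% confidence interval 1.26 to 1.65) with a limma adjusted p of 0.0178. In bulk RNA, more cells with the transcript and more transcript per cell cannot be told apart. The call needed all 4 arrays: leaving out any 1 array kept the log2 change between 0.50 and 0.55 but gave adjusted p-values of 0.0748 and 0.0920 without shLDHA replicates 1 and 2, and of 0.0650 and 0.0773 without scramble replicates 1 and 2.

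The DNA upstream of Epcam is shown because this gene alone of the set passed the test and because the motif CACCTG, read on either strand as CACCTG or CAGGTG, is the E-box that SNAIL and ZEB proteins bind. The 250 bases before the annotated start, from RefSeq (GRCm38.p6), are given 5′ to 3′ with the motif in capitals; Epcam lies at chr17:87635729-87635978 (plus strand) and Snai1 at chr2:167537945-167538194 (plus strand).
Epcam: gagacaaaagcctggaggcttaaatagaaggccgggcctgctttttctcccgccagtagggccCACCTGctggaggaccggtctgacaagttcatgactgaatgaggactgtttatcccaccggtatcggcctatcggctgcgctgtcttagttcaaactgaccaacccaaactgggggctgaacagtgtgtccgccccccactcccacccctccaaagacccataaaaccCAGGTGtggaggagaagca
Snai1: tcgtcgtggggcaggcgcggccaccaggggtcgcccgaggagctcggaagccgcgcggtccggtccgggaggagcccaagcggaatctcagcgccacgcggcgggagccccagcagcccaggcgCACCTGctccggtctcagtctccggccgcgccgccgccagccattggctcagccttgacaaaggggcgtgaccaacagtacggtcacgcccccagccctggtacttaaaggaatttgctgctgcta
The Epcam window held the motif at 2 places, beginning 187 and 19 bases before the start, and the Snai1 window held it once, 126 bases before the start. The windows of Vim, Twist1 and Twist2 did not contain it, nor did any of the 4 windows of Zeb2. Of 32851 such windows in the mouse table, 17.2% had at least 1 copy, and the share with 2 copies was not counted. A match is a description of the sequence only.

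Cdh1, which encodes E-cadherin, the main adhesion molecule of epithelial adherens junctions, hardly differed. It read 10.31 and 10.32 in shLDHA cells, against 10.26 and 10.31 in scramble cells. The knockdown arrays were marginally above both controls, with a nearest pair 0.005 apart, and the log2 change of 0.04 (SE 0.08, adjusted p = 0.857) corresponds to a ratio of 1.03 with a 95% interval of 0.895 to 1.18. A second, dimmer Cdh1 probe set read 5.82 and 5.54 in shLDHA cells, against 5.71 and 5.85 in scramble cells, with overlapping groups and a log2 change of -0.09 (adjusted p = 0.735 in the fit of every probe set).

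Cdh2, which encodes N-cadherin, was dim in both groups on both of its probe sets. The brighter one read 2.75 and 2.84 in shLDHA cells, against 2.79 and 2.85 in scramble cells. The groups overlapped, and the log2 change of -0.03 (SE 0.09, adjusted p = 0.908) was within the spread between arrays. The dimmer one read 2.19 and 1.99 in shLDHA cells, against 2.03 and 2.06 in scramble cells. N-cadherin transcript was thus not detectable above the dim limit in either kind of cell.

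Vim, which encodes vimentin, the intermediate filament protein of mesenchymal cells, was well above the dim limit in every sample. It read 11.74 and 11.92 in shLDHA cells, against 12.03 and 12.01 in scramble cells. Both knockdown arrays were lower, yet the shLDHA arrays differed from each other by nearly as much as from the controls. The log2 change was -0.19 (SE 0.09, adjusted p = 0.317), a ratio of 0.877 with a 95% interval of 0.749 to 1.03. The second Vim probe set gave the same order at a lower signal, 8.996 and 9.36 in shLDHA cells, against 9.50 and 9.42 in scramble cells (log2 change -0.29, SE 0.13, adjusted p = 0.281 in the fit of every probe set). Vim passed in 1 of 13 alternative analyses, the one that lets the variance prior follow the signal level (adjusted p = 0.0481).

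Snai1 and Snai2 encode the zinc finger repressors SNAIL and SLUG. Snai1, which was above the dim limit, read 4.72 and 4.82 in shLDHA cells, against 5.01 and 4.91 in scramble cells. The groups did not overlap, but the log2 change of -0.19 (SE 0.09, adjusted p = 0.283) missed the threshold; the 95% interval of the ratio ran from 0.755 to 1.02. Snai2 read 2.97 and 2.97 in shLDHA cells, against 3.38 and 3.19 in scramble cells. Its log2 change of -0.31 (SE 0.10) was the most negative of the 9 genes, with an unadjusted limma p of 0.0148 and an adjusted p of 0.119. Since Snai2 was dim in both groups, no fold is given, and differences at that level may be understated.

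Twist1 and Twist2 encode basic helix-loop-helix factors that act as dimers on E-boxes. Twist1, which was above the dim limit, read 5.91 and 5.76 in shLDHA cells, against 6.26 and 5.90 in scramble cells. The higher knockdown array lay 0.02 above the lower control, so the groups overlapped, and the log2 change of -0.24 (SE 0.14) had an adjusted p of 0.377. The control arrays were far apart, so that the log2 change was -0.06 without scramble replicate 1 and -0.43 without scramble replicate 2. Twist2 was dim at 2.18 and 2.10 in shLDHA cells, against 2.24 and 2.34 in scramble cells, with a log2 change of -0.15 (SE 0.09, adjusted p = 0.399).

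Zeb1 encodes a zinc finger and homeodomain repressor of E-cadherin. It was dim, at 3.21 and 3.15 in shLDHA cells, against 3.41 and 2.89 in scramble cells. The 2 control arrays bracketed both knockdown arrays, and the sign of the log2 change (0.02, SE 0.17, adjusted p = 0.961) turned with the control array left out, 0.28 without scramble replicate 1 and -0.23 without scramble replicate 2. The 95% interval of the log2 change, -0.37 to 0.42, was the widest of the 9.

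ZEB transcripts are targets of the miR-200 family, microRNAs that help to keep cells in the epithelial state by limiting ZEB1 and ZEB2. The mature sequences of the 4 family members whose genes had a probe set are shown, because the shared seeds define which targets they recognise (RefSeq, GRCm38.p6, 5′ to 3′, seed of bases 2 to 8 in capitals).
miR-200b-3p: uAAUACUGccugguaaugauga
miR-200c-3p: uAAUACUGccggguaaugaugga
miR-200a-3p: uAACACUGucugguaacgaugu
miR-141-3p: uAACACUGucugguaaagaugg
The first pair shares one seed and the second pair another, which differ at a single base. The probe sets carry the names of the microRNA genes, not of a mature arm, and 6 of the 7 tested microRNA genes of the EMT list were dim. Mir200b read 3.49 and 3.43 in shLDHA cells, against 3.62 and 3.37 in scramble cells. Mir200c read 3.20 and 3.02 in shLDHA cells, against 2.97 and 3.04 in scramble cells. Mir200a lay between 3.22 and 3.60 and Mir141 between 2.15 and 2.37 over the 4 arrays, with overlapping groups for each of the 4 genes. None of the 7 passed limma's test, nor did any at an unadjusted p under 0.05, and levels of the mature forms were not measured separately.

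**Figure D2:**
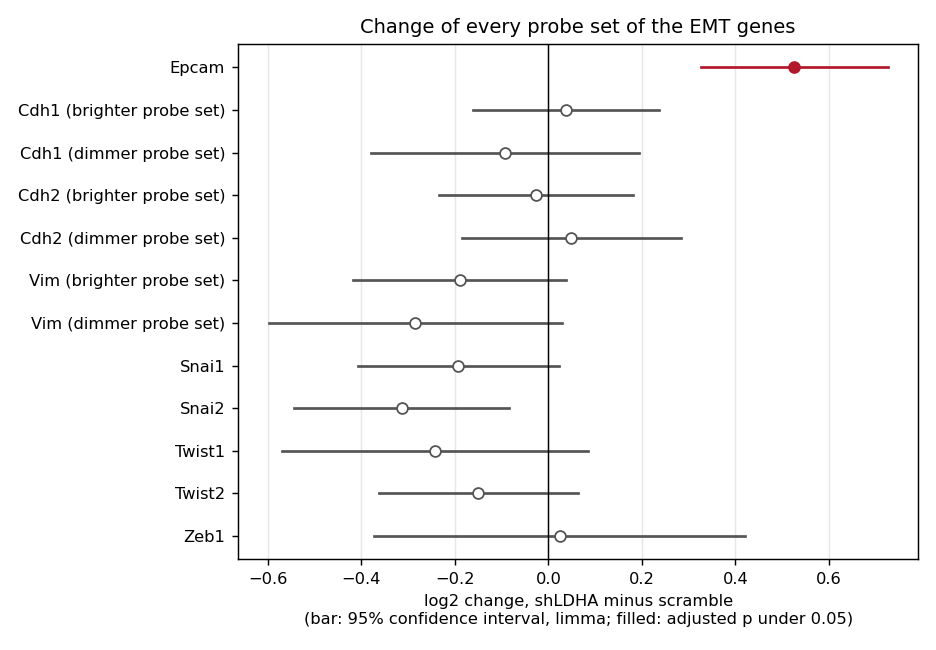
Log2 change, shLDHA minus scramble, of all 12 probe sets of the 9 EMT genes, with 95% confidence intervals from limma fitted on every probe set that has 1 gene symbol. Epcam, the filled point, is the 1 probe set past an adjusted p under 0.05, where 5.93% of all such probe sets passed, and the interval of Snai2 also leaves out 0 before adjustment.

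The wider list of epithelial surface and junction genes held calls in both directions. Of 25 tested, 3 rose and 3 fell, 24% beside 6.36% of all genes (3.37% higher, 2.99% lower), with a median log2 change of -0.02. Of these 25, 22 lay above the dim limit, as did 10816 of all 22180 genes, so the all-gene share is not matched for level. In the fit of the 10816 genes above that limit, 2904 passed, 9 of them among the 22 of this list. The lists below are not matched for level either, and all lists were chosen with earlier results of these data known. In the same fit 3 of 6 other EMT transcription factors, 7 of 14 epithelial regulators and 5 of 13 adherens junction genes passed. So did 9 of 16 mesenchymal markers, 8 of 18 EMT inducers and 2 of 3 other intermediate filament genes. The claudin genes Cldn7, whose protein associates with EpCAM at the membrane, and Cldn3 fell (-1.06 and -0.97), as did Tjp3, which encodes a tight junction scaffold (-0.84). Rab25, the gene of an epithelial vesicle-trafficking GTPase, rose (0.71), as did the tight junction gene Ocln (0.62) and the keratin gene Krt8 (0.47). Cldn7, against the direction of Epcam, read 5.08 and 4.98 in shLDHA cells, against 6.12 and 6.06 in scramble cells (adjusted p = 0.00242). Without shLDHA replicate 2, fewer of the 25 passed, and fewer of all genes. In the smaller list of 7 epithelial markers used to check the line, 2 rose, Krt8 and Krt14, and 2 fell, Cldn7 and Cldn3, 4 of 7 beside 6.36% of all genes. That list overlaps the wider one, and the calls of Krt8, Cldn7 and Cldn3 are those already counted there. All 7 lay above the dim limit by the mean of their brighter group, and 5 passed in the fit of genes above it. Krt14 lay below the dim limit in scramble cells and was at least 1.40-fold higher in shLDHA cells (limma adjusted p = 0.0161), taken against that limit. Fewer of the 7 passed without shLDHA replicate 2, and fewer of all genes.

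Genes linked to adherens junctions moved in both directions while Cdh1 did not pass. Of 15 such genes, 2 rose and 2 fell, 26.7% beside 6.36% of all genes (median log2 change 0.01). Jup, which encodes plakoglobin, a catenin that links cadherins to the cytoskeleton, rose by 0.71 and Vcl, the vinculin gene, by 0.41, and the nectin adhesion genes Nectin2 and Nectin3 changed by -0.94 and -0.46. Vcl was just under the threshold (adjusted p = 0.04999) and passed in 5 of 13 alternative analyses. With any 1 array left out, the list count was lower, as was the count over all genes.

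Genes that regulate the epithelial state also split. Of 18 such regulators, 2 rose and 1 fell, 16.7% beside 6.36% of all genes. Grhl3, a grainyhead-like factor, lay below the dim limit in scramble cells and was at least 1.67-fold higher in shLDHA cells (adjusted p = 0.00468), taken against that limit, and Ovol1, a zinc finger repressor of mesenchymal genes, rose by 0.45. The ETS factor gene Ehf fell below the dim limit in shLDHA cells, at 3.21 and 3.20, against 4.57 and 4.62 in scramble cells, and was at least 1.30-fold lower by the same measure (adjusted p = 0.000872). Ovol1 passed in 4 of 13 alternative analyses.

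Among regulators of the EMT factors, 3 of 20 rose, beside 3.37% of all genes, and 0 fell, beside 2.99%. All 20 lay above the dim limit, so these shares are not matched for level. In the fit of genes above that limit, 5 of the 20 passed, beside 2904 of 10816 genes. Id2 and Id3 encode inhibitors that bind helix-loop-helix proteins and keep them from DNA. Id2 read 7.18 and 7.63 in shLDHA cells, against 6.46 and 6.39 in scramble cells (log2 change 0.98, SE 0.15, adjusted p = 0.0162), and Id3 rose by 0.45. Ezh2, the gene of a Polycomb histone methyltransferase, rose by 0.38. Id2 passed in all 13 alternative analyses, Id3 in 8 and Ezh2 in 6. Fewer of the 20 genes passed with any 1 array left out, and fewer of all genes. Of 12 other EMT transcription factors, 1 passed, 8.33% beside 6.36% of all genes. Foxq1, a forkhead gene, rose by 0.54 (adjusted p = 0.0178), while Hmga2, which encodes a chromatin protein, had a log2 change of -0.32 (adjusted p = 0.0763). A second, dim Foxq1 probe set had a log2 change of -0.12. With the mean of both probe sets Foxq1 did not pass (log2 change 0.21, limma adjusted p = 0.378), and the list count was 0. Nor did Foxq1 pass with any 1 array left out, when fewer of all genes passed as well.

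Mesenchymal markers other than Vim and Cdh2 showed 1 rise and 4 falls among 30 tested, beside 3.37% and 2.99% of all genes (median log2 change -0.02). The matrix protein gene Postn rose (adjusted p = 0.000962) but was dim in both groups by their means, at 4.22 and 4.14 in shLDHA cells, against 2.64 and 2.44 in scramble cells, so no size is given. Mmp3, which encodes the protease stromelysin-1, changed by -1.83, the matrix gene Tnc by -1.16, the hyaluronan receptor gene Cd44 by -0.51 and Nes, which encodes the intermediate filament protein nestin, by -0.72. The list count was lower without shLDHA replicate 2, as was the count over all genes. In the list of other intermediate filament genes and their linkers, Nes, already counted above, fell and Plec, the gene of the linker plectin, rose (0.65). So 2 of 10 passed, 20% beside 6.36% of all genes, while Vim did not. Without shLDHA replicate 1, shLDHA replicate 2 or scramble replicate 1, fewer of the 10 passed, and fewer of all genes.

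Of 20 genes for signals that can induce EMT, 2 rose and 2 fell, 20% beside 6.36% of all genes (median log2 change -0.07). The receptor genes Tgfbr2 and Tgfbr3 for TGF-beta, the best known inducer of the SNAIL and ZEB genes, changed by -0.70 and -0.73, and the ligand gene Tgfb3 and the receptor gene Notch1 rose by 0.47 and 0.55. Fewer of the 20 passed limma's adjusted test without shLDHA replicate 1, shLDHA replicate 2 or scramble replicate 1, and fewer of all genes did.

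**Figure D3:**
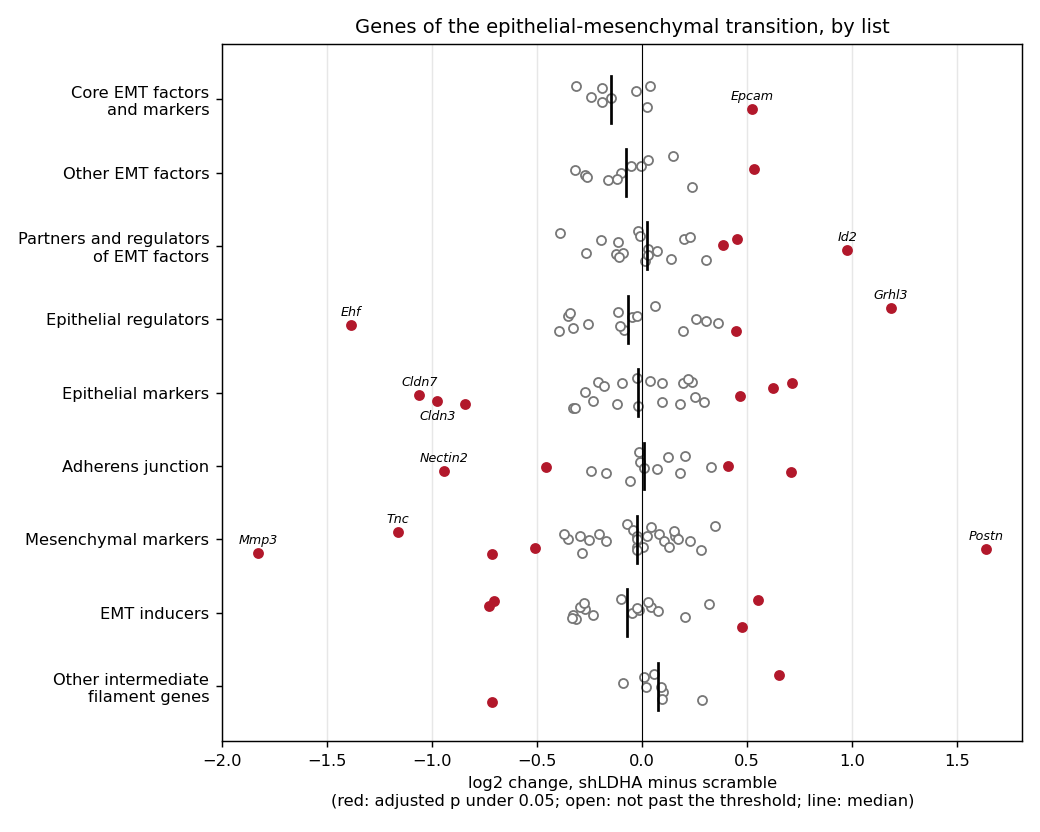
Log2 change, shLDHA minus scramble, of the tested genes of each EMT list; red points passed limma's test at an adjusted p under 0.05, open points did not, and black lines are list medians. Calls lie on both sides of 0 in the epithelial, junction, mesenchymal and inducer lists, and every list median lies between -0.15 and 0.07.

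Over the 4 arrays, the genes that followed Epcam most closely after each gene was centred on its own mean were Lmnb1, which encodes the nuclear lamin B1, Zfp707, a zinc finger gene, and Grb7, the gene of an adaptor of receptor tyrosine kinases. Their largest departure from the Epcam values on any array was 0.0087 for Lmnb1, 0.013 for Zfp707 and 0.014 for Grb7, taken from 11089 genes at or above the median level of 4.10. Likeness over 4 arrays in 2 groups is a description of these arrays.

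**Figure D4:**
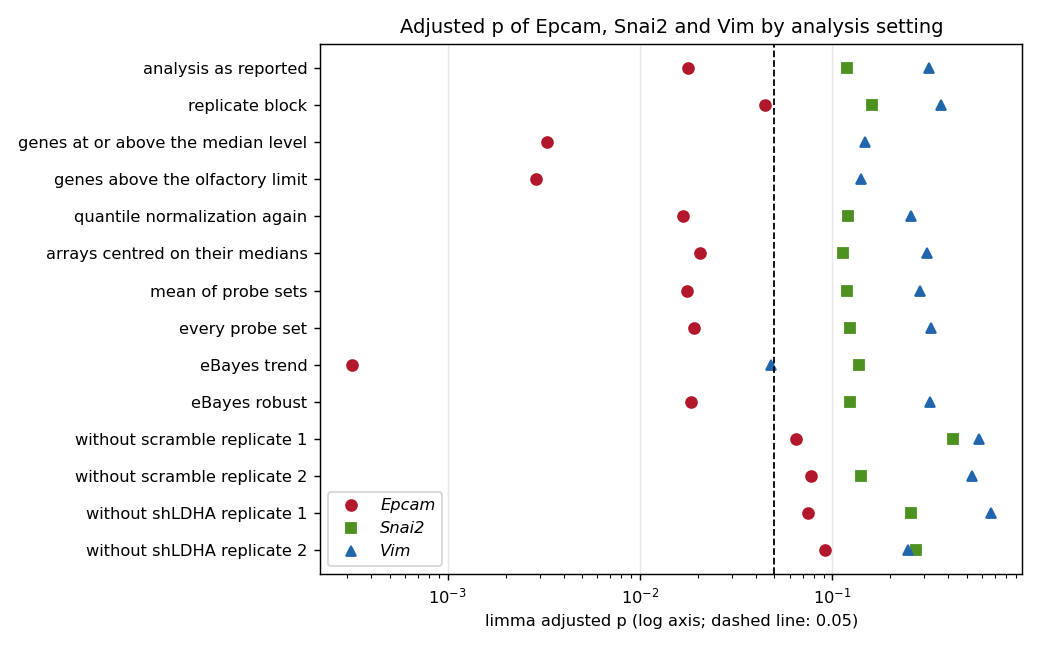
Limma adjusted p (log axis) of Epcam, Snai2 and Vim in the analysis as reported and under 13 alternatives; the dashed line is 0.05. Epcam lies left of the line in 9 of the 13 and right of it in the 4 that leave out an array, Snai2 lies right of it in all 11 in which it was tested, and Vim lies left of it in 1.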

How the data were processed

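RNA of 4T1 cells was measured on 4 arrays, 2 of shLDHA and 2 of scramble cells. The deposited values are log2 expression; RMA and R 3.4.0 are the tools that the submitters' processing notes list. The sources used here do not give the probe annotation behind RMA. No sample column was left out (0 columns). Of 41345 probe sets, a platform table gave 1 gene symbol to 23521, several to 1814 and none to 16010. Only the first kind was used, and for genes with more than 1 probe set the one with the highest mean was kept, which left 22180 genes with no filter on level. Groups and replicate numbers came from the sample titles. Tests used limma version 3.58.1 under R 4.3.3 (lmFit, eBayes, two-sided, no covariate, 2 residual and 4.52 prior degrees of freedom), with Benjamini-Hochberg adjustment over all genes and a threshold of 0.05. SDs are over 2 arrays and the number of arrays limits the precision. Every probe set was also fitted without collapsing to genes. The code was tested on simulated data.

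The members and the 13 other gene lists were chosen with earlier results of these data known. Of 207 list entries, 194 matched a tested gene. Named were all members, Ldha, up to 4 genes past the threshold with the smallest p in each list (or the 2 smallest where fewer than 2 passed) and the 3 genes closest to a member past the threshold; not every gene of this rule is described. Ocln, Cd44 and the dim or bright markers of other cell types were named after their values were seen. Alternatives are described in the closing section. Sequences are from RefSeq tables of GRCm38.p6. Promoter windows of Snai1, Twist1, Twist2, Vim, Epcam and Zeb2 were taken. Windows on chromosome 18, where Zeb1 and Cdh2 lie, were left out, and none was found for Cdh1 or Snai2.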

Additional observations from a re-analysis of the deposited data

How the results depend on the processing

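Of the 13 alternatives, Epcam passed in 9, with a log2 change of 0.50 to 0.55 and adjusted p-values of 3.18e-04 to 0.0920, and it was lost in the 4 that leave out an array, which also have fewer residual degrees of freedom. The count of EMT genes past the threshold was 1 in the main analysis, 2 with a variance trend, and 0 with any 1 array left out; in those 4 fits limma gave 1 to 3 of the 9 an unadjusted p under 0.05. The count over all genes was 1410 in the main analysis, 838 with the replicate number as a block, 2836 with genes at or above the median level, 2904 with genes above the olfactory limit, 2806 with a variance trend, and 370 to 636 with any 1 array left out. Same-numbered deviations correlated at -0.03 across genes. With 2 arrays per group, that value cannot decide whether the replicate numbers pair the arrays. Under the block Epcam kept its call (limma adjusted p = 0.0444), while Ldha (0.0734), Ezh2, Id3, Krt8, Nectin3, Ovol1, Tgfb3 and Vcl did not. The sign of the log2 change differed from the main analysis in 2 of 11 settings for Zeb1, 1 of 13 for Cdh1 and 3 of 11 for Cdh2, none of them called. For the named genes, 519 combinations of gene and setting stayed on their side of the threshold, 80 lost the call and 4 gained it. Outside the core set, Cldn7, Cldn3, Tjp3, Nectin2, Ehf, Grhl3, Id2, Mmp3, Tnc and Cd68 passed in all 13 alternatives and Postn in the 12 in which it was tested. The other list genes that the naming rule gave and that passed the threshold lost the call in at least 1; Ocln and Cd44 were not followed singly. The cause of each lost call was not tested. Dim genes, 4 of the 9, limit what a small difference can show.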
